A study of Mus musculus with 10 samples.

Results

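The 9 genes described here are 4 Dppa genes (developmental pluripotency associated: Dppa2, Dppa3, Dppa4 and Dppa5a) and 5 genes best known from germ cells, namely Sohlh2, Dazl, Ddx4, Mael and Sycp3. They were taken by symbol from a table of counts for 24540 named mouse genes. All 9 had a row, and all 9 passed the filter on low counts that left 15175 genes for testing. Polyadenylated RNA had been sequenced from 10 libraries in 5 groups of 2. The first group was untreated mouse embryonic stem (ES) cells, grown with leukaemia inhibitory factor, of a C57BL/6 line that carries puromycin resistance and GFP driven from the Nkx2.5 promoter, which is active in cardiac precursors. The other 4 groups came from the same line after differentiation with Noggin, BMP4 and puromycin, and were labelled cardiomyocytes. One of them received the solvent DMSO (at most 0.05%) for 24 h. The others received 5 nM TCDD, the dioxin 2,3,7,8-tetrachlorodibenzo-p-dioxin and a ligand of the aryl hydrocarbon receptor, for 24, 72 or 96 h in that solvent. The design compares vehicle-treated cells with ES cells and with each TCDD time. TCDD at 72 and 96 h had no vehicle group of its own time, so time and TCDD cannot be told apart there. DNA methylation, which the design also names, was not analysed here.

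The Dppa genes are transcribed in pluripotent cells, oocytes and early germ cells. Dppa2 and Dppa4 encode partner proteins that bind chromatin at developmental promoters. Dppa3, also called Stella, encodes a protein that shields the maternal genome from demethylation in the zygote and marks newly formed primordial germ cells. Genes such as Dazl, Ddx4, Mael and Sycp3 serve germ granules, transposon silencing and meiosis. In mouse ES cells and somatic cells they are held down by a Polycomb complex with E2F6, MGA and MAX and by promoter DNA methylation.

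Library totals ran from 15326612 to 31192459 counts. A count of 0 allowed a level of up to 0.0962 to 0.196 CPM (counts scaled to library size; the limit is 3 counts and covers counting error only), and every one of the 9 genes lay above this in every library. Whether the 2 libraries of a group are separate cultures is not said in the labels, and a p-value here reflects their spread alone, possibly technical. Replicates were unequally close, with a chi-square per gene of 3.23 for DMSO and 18.9 for TCDD 96 h, against 196.4 for ES cells, 191.5 for TCDD 72 h and 86.5 for TCDD 24 h. By transcript GC content the outlying libraries were replicate 2 of ES cells and replicate 1 of TCDD 24 h, with a trend of 1.72 and 1.04 log2 units against 0.058 to 0.557 in the others. TCDD 72 h replicate 1 was the shallowest library and was lower than its partner for all 9 genes. Results are therefore given with these 3 libraries and without them. Setting TCDD 72 h replicate 1 apart drew in part on the values of the 9 genes themselves. What these genes show without the 3 libraries is thus not independent support. Of 11 cardiomyocyte markers none was at 0 in the DMSO group, 3 averaged below 1 CPM and 1 above 10 CPM. Their summed level was 44.7 to 50.3 CPM per DMSO library, against 18.7 to 25.9 in ES cells, and that of 6 core pluripotency genes was 3372 to 3395, against 4031 to 5028. The cells labelled cardiomyocytes thus contained RNA of both marker sets, as did ES cells. In both, the core pluripotency sum stood far above the cardiomyocyte sum.

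The genes lie on 8 chromosomes (coordinates are GRCm38, from RefSeq). Dppa4 (chr16:48283735-48294292) and Dppa2 (chr16:48310274-48319513) are neighbours on the plus strand, 15981 bases apart. Dppa3 (chr6:122626424-122630271) lies 77217 bases from Nanog, and Dppa5a (chr9:78367052-78368199) lies 8703 bases from Ooep, an oocyte gene. Sohlh2 lies at chr3:55182044-55209957, Dazl at chr17:50279393-50293620, Ddx4 at chr13:112598333-112652633, Mael at chr1:166201385-166238744 and Sycp3 at chr10:88459587-88473236. Dppa2, Dppa3 and Dppa4 each have a processed pseudogene (Gm9788, Dppa3-ps and Gm14058) that matches at least 98% over 906, 451 and 532 bases, so their counts could be shared with these copies and are uncertain to that extent. Sycp3 overlaps Chpt1 on the opposite strand over 420 bases of transcript. The libraries were stranded, but how the counting used strand is not stated in the labels, so Sycp3 and Chpt1 reads may not have been separated.

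The sequences before the starts of 4 germline genes are shown because Sohlh2 and Mael fell and Sycp3 rose between ES cells and vehicle-treated cells, and because Ddx4, which did not pass, has like Mael and Sycp3 motifs of the repressor complex named above. Each is the 250 bases before a RefSeq gene start (GRCm38.p6), written 5′ to 3′ on the strand of the gene. Capitals mark 2 motifs, searched on both strands: the E-box CACGTG, which MGA and MAX bind, and the E2F motif TCCCGC, which E2F6 binds. The E2F motif of Ddx4 and Sycp3 lies on the other strand and is therefore spelled as its reverse complement. The windows are chr3:55181794-55182043 on the plus strand for Sohlh2, chr1:166238745-166238994 on the minus strand for Mael, chr13:112652311-112652560 on the minus strand for Ddx4 and chr10:88459337-88459586 on the plus strand for Sycp3. The Ddx4 window precedes a start at 112652310, which lies inside the RefSeq span of the gene.
Sohlh2: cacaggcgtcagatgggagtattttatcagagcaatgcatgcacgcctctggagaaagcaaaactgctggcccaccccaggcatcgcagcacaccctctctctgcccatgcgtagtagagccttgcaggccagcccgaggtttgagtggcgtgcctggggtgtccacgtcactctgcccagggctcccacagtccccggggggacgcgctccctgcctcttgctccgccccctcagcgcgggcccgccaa
Mael: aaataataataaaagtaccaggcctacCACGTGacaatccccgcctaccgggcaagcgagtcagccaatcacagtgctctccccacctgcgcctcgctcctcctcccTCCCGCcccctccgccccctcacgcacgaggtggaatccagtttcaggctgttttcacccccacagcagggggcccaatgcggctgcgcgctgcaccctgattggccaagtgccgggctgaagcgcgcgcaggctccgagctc
Ddx4: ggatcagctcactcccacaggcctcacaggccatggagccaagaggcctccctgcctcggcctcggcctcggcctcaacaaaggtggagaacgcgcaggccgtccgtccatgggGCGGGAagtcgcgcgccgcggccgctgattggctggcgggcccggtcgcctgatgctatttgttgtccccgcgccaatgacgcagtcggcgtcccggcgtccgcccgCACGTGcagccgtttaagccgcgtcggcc
Sycp3: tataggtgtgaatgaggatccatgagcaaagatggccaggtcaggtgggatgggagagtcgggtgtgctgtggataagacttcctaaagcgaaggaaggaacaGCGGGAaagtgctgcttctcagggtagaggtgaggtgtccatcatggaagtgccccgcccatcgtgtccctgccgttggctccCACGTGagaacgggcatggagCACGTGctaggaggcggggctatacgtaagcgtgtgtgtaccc
Mael held 1 E-box, 223 bases before its start, and 1 E2F motif at 143 bases. Ddx4 held 1 of each, at 29 and 136 bases. Sycp3 held 2 E-boxes, at 64 and 43 bases, and 1 E2F motif at 147 bases. Sohlh2 and Dazl (window chr17:50293621-50293870, minus strand) held neither motif. Over 32851 windows of the same length from 27025 genes, 6.02% held the E-box, 16.9% the E2F motif, 1.45% both and 78.5% neither. All 5 windows held more CpG than the median window (6), with 12 in Sycp3, 14 in Sohlh2, 18 in Mael, 20 in Dazl and 31 in Ddx4. In that order, 66.5%, 70.6%, 78.3%, 82.1% and 94.8% of all windows held fewer. Both motifs contain CG, and the motif shares over all windows were not matched for CpG content. A motif match describes these letters and does not show binding.

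Per kilobase of transcript the 9 genes spanned a wide range. Mean levels over the 10 libraries were 2204 CPM per kb for Dppa5a, 76.1 for Dppa4, 70.4 for Dppa3, 53.7 for Dppa2 and 14.9 for Sohlh2. Mael (5.59), Ddx4 (5.41), Dazl (3.69) and Sycp3 (2.79) lay lowest. The genes also differed in how far they moved. Sohlh2 ranged 62.3-fold between its lowest and highest library, Dazl 38.1-fold and Dppa3 23.4-fold, whereas Dppa4 ranged 1.93-fold and Dppa2 2.55-fold. The spread of log2 CPM over the 10 libraries placed Sohlh2 above 99.5%, Dppa3 above 98.2% and Dazl above 97.2% of tested genes, and Dppa4 above 18.0%.

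**Figure D1:**
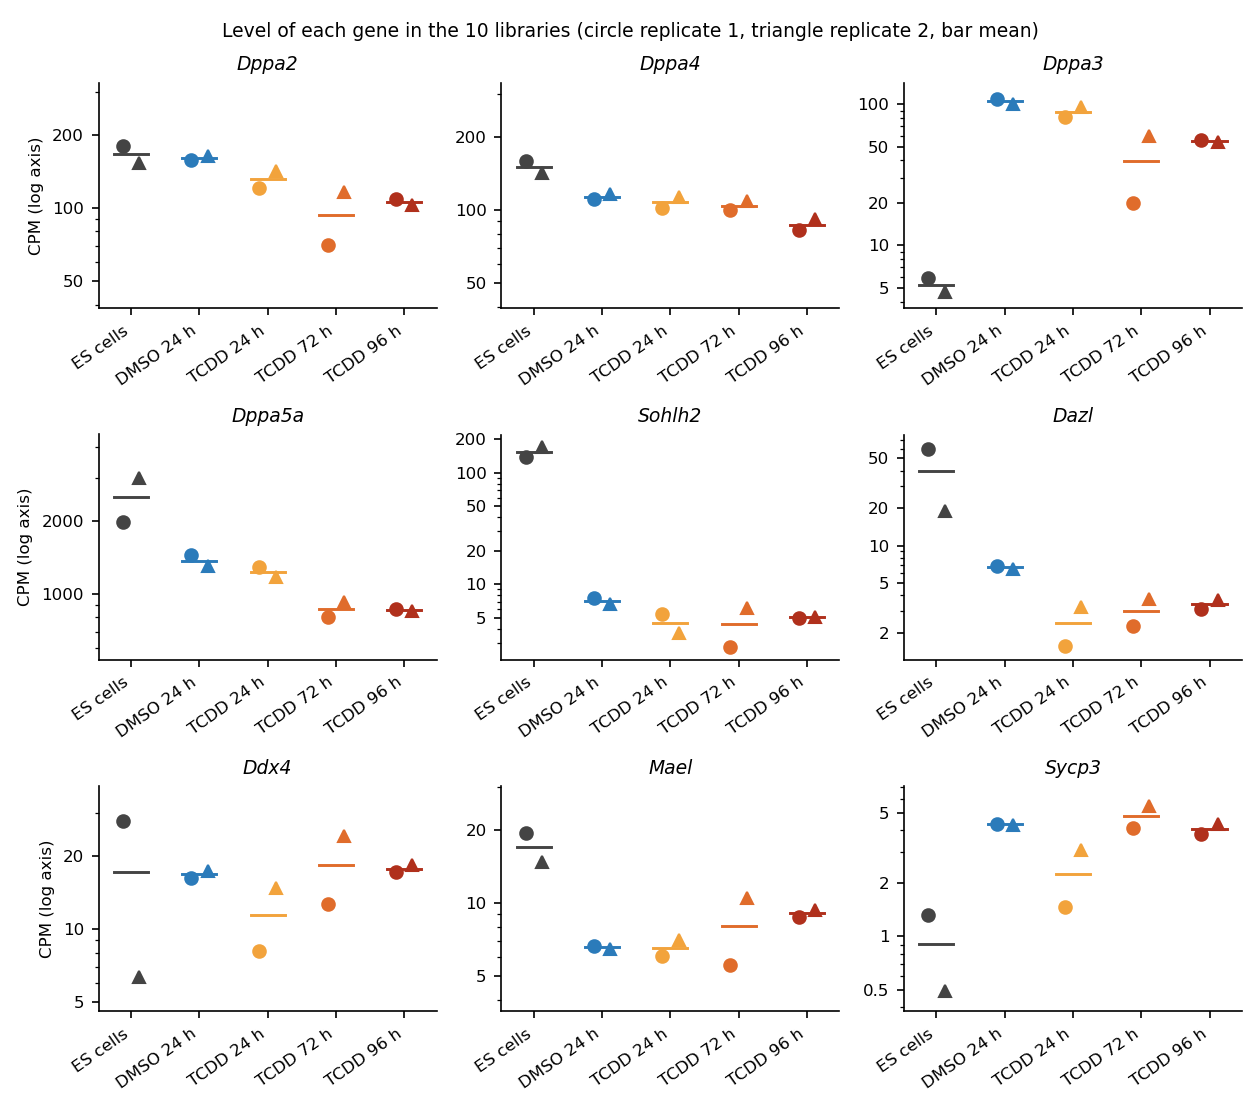
Level of each gene in the 10 libraries, in CPM on log axes whose ranges differ between panels. Circles are replicate 1, triangles replicate 2 and bars group means (n = 2). Dppa3 stood between 4.65 and 5.85 CPM in ES cells and at 19.9 CPM or more elsewhere, while Sohlh2 stood at 140 to 170 CPM in ES cells and at 7.61 CPM or less elsewhere.

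Between ES cells and vehicle-treated cells the germline genes were reordered. Sohlh2, Dazl, Mael and Dppa5a fell and Dppa3 and Sycp3 rose, whereas Dppa2, Dppa4 and Ddx4 did not pass (edgeR's quasi-likelihood test with Benjamini-Hochberg adjustment over all 15175 genes, threshold 0.05). Thus 6 of the 9 genes passed, 2 higher and 4 lower, where 31% of all tested genes passed, 15.5% higher and 15.5% lower. Libraries of 5 were lower and of 2 higher without overlap, where 35.1% and 36.4% of all genes were. The median log2 fold change was −0.404 over the 9 genes and 0.008 over all genes. In bulk RNA, fewer cells that express a gene and less RNA per cell cannot be told apart.

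Dppa3 was the one Dppa gene that rose. Its level was 5.85 and 4.65 CPM in the ES libraries and 108.8 and 101 CPM in the DMSO libraries. The groups were far apart, and the lower DMSO library stood well above the higher ES library. Dppa3 was 19.9-fold higher after differentiation (log2 fold change 4.32 ± 0.47 SE, edgeR adjusted p = 0.000286). It passed in 17 of 17 alternative fits, with log2 fold changes from 3.94 to 4.50. The neighbouring pluripotency gene Nanog moved the other way, from 705 ± 30.4 to 441 ± 8.35 CPM (SD, n = 2, log2 fold change −0.68, edgeR adjusted p = 0.0274), although its call held in only 9 of 17 alternatives.

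The other Dppa genes changed little or fell. Dppa5a, which encodes a KH-domain RNA-binding protein of pluripotent cells, stood at 1981 and 3007 CPM in ES cells and at 1440 and 1301 CPM with DMSO. The groups did not overlap, and the fall of 0.86 ± 0.24 (SE) on the log2 scale passed (edgeR adjusted p = 0.0238). That call rested on single libraries, since it ended without ES replicate 2 (adjusted p = 0.113), DMSO replicate 1 (0.119), DMSO replicate 2 (0.178), TCDD 96 h replicate 1 (0.0515) or TCDD 96 h replicate 2 (0.0542). Dppa4 stood at 159 and 141 CPM in ES cells and at 111 and 116 CPM with DMSO. Its libraries did not overlap, but the log2 fold change of −0.40 ± 0.18 (SE) did not pass (edgeR adjusted p = 0.112). It passed with the GC trend removed (−0.48, adjusted p = 0.0122). Dppa2 stood at 179 and 153 CPM in ES cells and at 158 and 164 CPM with DMSO, so both DMSO libraries lay inside the ES range. Its log2 fold change was −0.05 ± 0.25 (SE, edgeR adjusted p = 0.897). With the GC trend removed the estimate was −0.70 ± 0.27 (SE), which also did not pass (edgeR adjusted p = 0.0632). Between its ES libraries, however, Dppa2 differed by −0.23 (log2, replicate 2 minus replicate 1), where the GC trend gave −0.90. Dppa2 thus did not follow that trend, and removing the trend set its ES libraries further apart.

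Sohlh2, a basic helix-loop-helix factor of spermatogonial and oocyte differentiation, changed most. It stood at 139.8 and 169.9 CPM in ES cells and at 7.61 and 6.64 CPM with DMSO, with no overlap. This was a 21.7-fold lower level after differentiation (log2 fold change −4.44 ± 0.38 SE, edgeR adjusted p = 8.80e-05), and it passed in 17 of 17 alternatives, between −4.57 and −4.29. Dazl, an RNA-binding protein needed for germ cell development, stood at 59.9 and 18.9 CPM in ES cells and at 6.91 and 6.55 CPM with DMSO. The ES libraries differed from each other by more than 3-fold, and both lay above both DMSO libraries. Dazl was 5.85-fold lower (log2 fold change −2.55 ± 0.53 SE, edgeR adjusted p = 0.00739). The size rested on the ES libraries, at −1.48 without ES replicate 1 and −3.15 without ES replicate 2, and Dazl passed in both fits (adjusted p = 0.00723 and 0.000185). The call ended without DMSO replicate 1 (adjusted p = 0.0600) or DMSO replicate 2 (0.0637). Mael, which acts in transposon silencing through piRNAs, stood at 19.4 and 14.7 CPM in ES cells and at 6.66 and 6.50 CPM with DMSO, without overlap. It was 2.59-fold lower (log2 fold change −1.37 ± 0.30 SE, edgeR adjusted p = 0.00956), again a call that ended without either DMSO library (adjusted p = 0.0769 and 0.0824).

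Sycp3 and Ddx4 depended on the libraries and on GC content. Sycp3, a protein of the axes of meiotic chromosomes, had 40 counts in ES cells, at 1.33 and 0.490 CPM, and 231 counts with DMSO, at 4.34 and 4.25 CPM. Both DMSO libraries were higher than both ES libraries, and the log2 fold change of 2.22 ± 0.47 (SE) passed (edgeR adjusted p = 0.00802). The GC trend of each library was fitted against the mean of the 10 libraries, so a trend shared by both libraries of a group was removed too. At the GC content of Sycp3 the trend was 0.769 and 0.812 with DMSO and −0.796 and −2.421 in ES cells. Whether the shared part is technical was not tested. Sycp3 has the lowest GC content of the 9 transcripts (34.3%), and with the GC trend of each library removed its log2 fold change was 0.05 ± 0.32 (SE, edgeR adjusted p = 0.921). It was 1.68 and passed without the 3 libraries that stood apart (adjusted p = 0.000302), and 3.13 and passed without ES replicate 1 (adjusted p = 0.00117). Chpt1, the overlapping gene on the other strand, was at 10 ± 0.642 CPM in ES cells and 12.7 ± 0.762 with DMSO (SD, n = 2, edgeR adjusted p = 0.289). Ddx4, the mouse Vasa helicase of germ granules, stood at 28.0 and 6.37 CPM in ES cells and at 16.3 and 17.4 CPM with DMSO. The DMSO values lay between the ES values, and the log2 fold change was −0.03 ± 0.59 (SE, edgeR adjusted p = 0.971). It was 1.41 and passed without ES replicate 1 (adjusted p = 0.0217), and −0.74 and passed without the 3 libraries (adjusted p = 0.000414).

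The difference between the ES libraries lay near the GC trend for Dazl and Sycp3 and beyond it for Ddx4. On the log2 scale ES replicate 2 minus replicate 1 was −1.66 for Dazl (37.0% GC), where the trend of all genes at that GC content gave −1.53, and −1.30 for Sycp3, where it gave −1.63. For Ddx4 (43.1% GC) the difference was −2.12 against a trend of −0.97. Dppa5a (49.4% GC) was higher in replicate 2 by 0.60, where the trend gave −0.08. With the trend removed, Dazl fell by 4.20 and Mael by 1.79 on the log2 scale (edgeR adjusted p = 5.92e-06 and 0.000633), both larger falls than without this step. Dppa3 and Sohlh2 moved little, to 3.94 and −4.57. In that fit 6 of the 9 genes passed, 1 higher and 5 lower, where 17.5% of all genes were higher and 26.4% lower. When the 3 libraries were left out 8 passed, 2 higher and 6 lower, where 25.6% of all genes were higher and 26.5% lower. That fit keeps 2 residual degrees of freedom, from the DMSO and TCDD 96 h pairs, which were the closest replicates, and assumes that the single ES, TCDD 24 h and TCDD 72 h libraries vary like them.

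**Figure D2:**
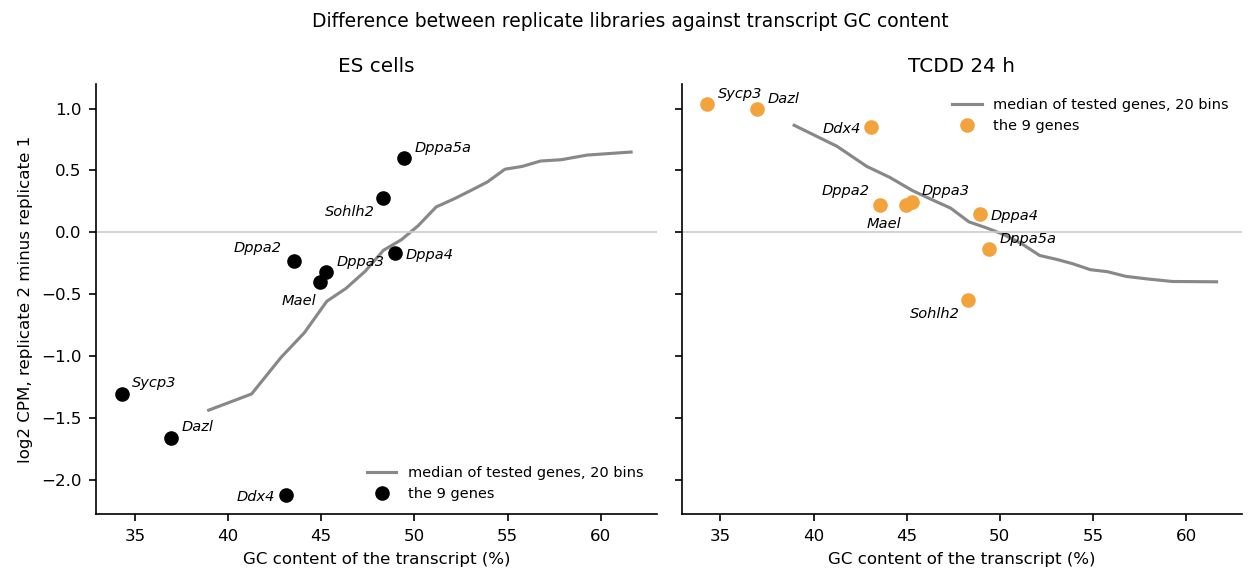
Difference between replicate libraries (log2 CPM, replicate 2 minus replicate 1) against the GC content of the longest protein-coding transcript, for ES cells and for TCDD 24 h. Points are the 9 genes and the line joins the medians of tested genes in 20 bins of GC content. Ddx4 in ES cells (−2.12) lay below the line and Dppa5a (0.60) above it, and at TCDD 24 h Sycp3 (1.04) and Dazl (0.997) lay at the AT-rich end.

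At 24 h of TCDD, the one time with a matched vehicle, no member passed. All 9 estimates were below 0, with a median log2 fold change of −0.294 against 0.024 over all genes. That shared direction did not hold with the GC trend removed, where Dppa2 (0.13), Dppa3 (0.04), Mael (0.30) and Sycp3 (0.30) were above 0. In the fit with all 10 libraries 0% of the 15175 tested genes passed (1296 had an unadjusted edgeR p under 0.05, among them 1 of the 9, and DESeq2 called 41 genes and none of the 9). Libraries of 7 of the 9 genes were lower with TCDD without overlap, where 33% of all genes were. Dazl had the largest estimate. It stood at 6.91 and 6.55 CPM with DMSO and at 1.57 and 3.22 CPM with TCDD, both TCDD libraries lying below both DMSO libraries (log2 fold change −1.48 ± 0.54 SE, edgeR adjusted p = 0.521). Sycp3 stood at 1.46 and 3.08 CPM with TCDD, against 4.34 and 4.25 (log2 fold change −0.92 ± 0.43 SE, adjusted p = 0.521). Within the TCDD pair Sycp3 and Dazl differed by 1.04 and 0.997 on the log2 scale, close to the GC trend of 1.09 and 0.94. With that trend removed, the estimates were −0.51 for Dazl and 0.30 for Sycp3, neither of which passed (edgeR adjusted p = 0.438 and 0.611).

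Sohlh2 stood at 5.38 and 3.66 CPM after 24 h of TCDD, below both DMSO values (log2 fold change −0.66 ± 0.35 SE, edgeR adjusted p = 0.521). Ddx4 stood at 8.10 and 14.7 CPM (−0.56 ± 0.59 SE) and Mael at 6.03 and 7.03 CPM (−0.01 ± 0.30 SE). The Dppa genes moved less than their errors or little more. Dppa2 stood at 121 and 141 CPM (−0.29 ± 0.25 SE), Dppa3 at 80.7 and 95.8 CPM (−0.25 ± 0.41 SE), Dppa5a at 1292 and 1174 CPM (−0.15 ± 0.23 SE) and Dppa4 at 102 and 113 CPM (−0.07 ± 0.18 SE). In the fit without the 3 libraries, 2 of the 9 genes passed and both were lower, where 2.26% of all genes were lower. These were Sohlh2 (log2 fold change −0.97) and Dazl (−1.06), and each passed in this fit alone of the 18 alternatives. For TCDD 24 h this fit rests on replicate 2 alone. Sohlh2 was lower in that library (3.66 CPM) than in replicate 1, which was left out (5.38 CPM). Its replicate difference of −0.545 on the log2 scale ran against the GC trend of 0.144. Over the 18 alternatives the Sohlh2 estimate ran from −0.969 to −0.399, so its size depended on the libraries kept.

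At 72 h of TCDD, Dppa2, Dppa5a, Sohlh2 and Mael had their lowest values of all libraries, in replicate 1. Dppa3 stood at 19.9 and 59.4 CPM, both below the DMSO values of 108.8 and 101, and the TCDD libraries differed by 1.58 on the log2 scale. The log2 fold change of −1.40 ± 0.41 (SE) did not pass in edgeR (adjusted p = 0.187), and DESeq2 called it (−1.43, adjusted p = 0.0296). Dppa2 stood at 70.3 and 116 CPM (−0.79 ± 0.25 SE, edgeR adjusted p = 0.203), Dppa5a at 804 and 930 CPM (−0.66 ± 0.24 SE) and Dppa4 at 99.8 and 109 CPM (−0.12 ± 0.18 SE). Each of these lay below both DMSO libraries, without overlap. Of the germline genes, Dazl stood at 2.29 and 3.72 CPM (−1.15 ± 0.54 SE) and Sohlh2 at 2.73 and 6.12 CPM (−0.67 ± 0.35 SE), also below DMSO. With the GC trend removed Dazl passed (−1.25 ± 0.26 SE, edgeR adjusted p = 0.0373), where 2.25% of all genes were lower. Mael (5.59 and 10.5 CPM), Sycp3 (4.13 and 5.45 CPM) and Ddx4 (12.7 and 24.1 CPM) spanned the DMSO values, with estimates of 0.30, 0.16 and 0.13. In edgeR with all 10 libraries and the GC trend left in, none of the 9 passed at 72 h, where 0.0461% of all genes did. Without overlap 6 of the 9 were lower, where 26.6% of all genes were. Of all genes 2215, and of the 9 genes 3, had an unadjusted p under 0.05.

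The replicates at 96 h of TCDD were closer. Dppa3 stood at 56.3 and 54.4 CPM (log2 fold change −0.92 ± 0.41 SE, edgeR adjusted p = 0.412), Dppa5a at 864 and 851 CPM (−0.68 ± 0.24 SE, 0.272), Dppa2 at 109 and 103 CPM (−0.60 ± 0.25 SE, 0.362) and Dppa4 at 82.4 and 91.7 CPM (−0.38 ± 0.18 SE, 0.440). All 4 Dppa genes lay below both DMSO libraries, and none passed. Dazl stood at 3.13 and 3.69 CPM (−0.98 ± 0.53 SE) and Sohlh2 at 5.04 and 5.09 CPM (−0.49 ± 0.35 SE), also below DMSO. Mael stood at 8.76 and 9.38 CPM, above both DMSO values of 6.66 and 6.50 (0.46 ± 0.30 SE, edgeR adjusted p = 0.661). Ddx4 at 17.1 and 18.3 CPM and Sycp3 at 3.79 and 4.33 CPM overlapped the DMSO libraries. None of the 9 passed, where 0.0857% of all genes did, while 1850 of all genes and 2 of the 9 had an unadjusted p under 0.05 and DESeq2 called 249 genes and none of the 9. Without overlap, 6 of the 9 were lower and 1 higher, where 32.2% and 34.5% of all genes were.

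With the 3 libraries that were set apart left out, more of the 9 genes passed at the later times, as did more genes in all. At 96 h 7 passed, 6 lower and 1 higher, where 14.4% of all genes were lower and 14.2% higher. The lower genes were Dppa3 (−0.94), Dppa5a (−0.69), Dppa2 (−0.62), Dazl (−1.003), Dppa4 (−0.40) and Sohlh2 (−0.52), and the higher gene was Mael (0.44). The spread in this fit came only from the DMSO and TCDD 96 h pairs, with a chi-square per gene of 3.23 and 18.9. ES cells, TCDD 24 h and TCDD 72 h, each kept as 1 library, had varied more as pairs (196.4, 86.5 and 191.5). The calls of this fit rest on that choice of libraries. At 72 h 6 passed, where 6.61% of all genes were lower and 6.17% higher: Dppa3 (−0.84), Dppa5a (−0.58), Dppa2 (−0.49) and Dazl (−0.88) were lower and Mael (0.65) and Ddx4 (0.50) higher. For TCDD 72 h this fit rests on replicate 2 alone. With replicate 2 left out in its place, Mael was at −0.262 and Ddx4 at −0.431. The direction of Mael and Ddx4 at 72 h thus depended on which library was kept. Dppa3, Dppa5a, Dppa2 and Dazl were below 0 at 72 h in all 18 alternatives. The 96 h estimates stayed near those of all 10 libraries (Dppa3 −0.92, Dppa5a −0.68, Dazl −0.98), and their SE was smaller (0.08 for Dppa3 in place of 0.41). The 3 TCDD comparisons share the DMSO libraries, so their estimates are not independent of each other.

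**Figure D3:**
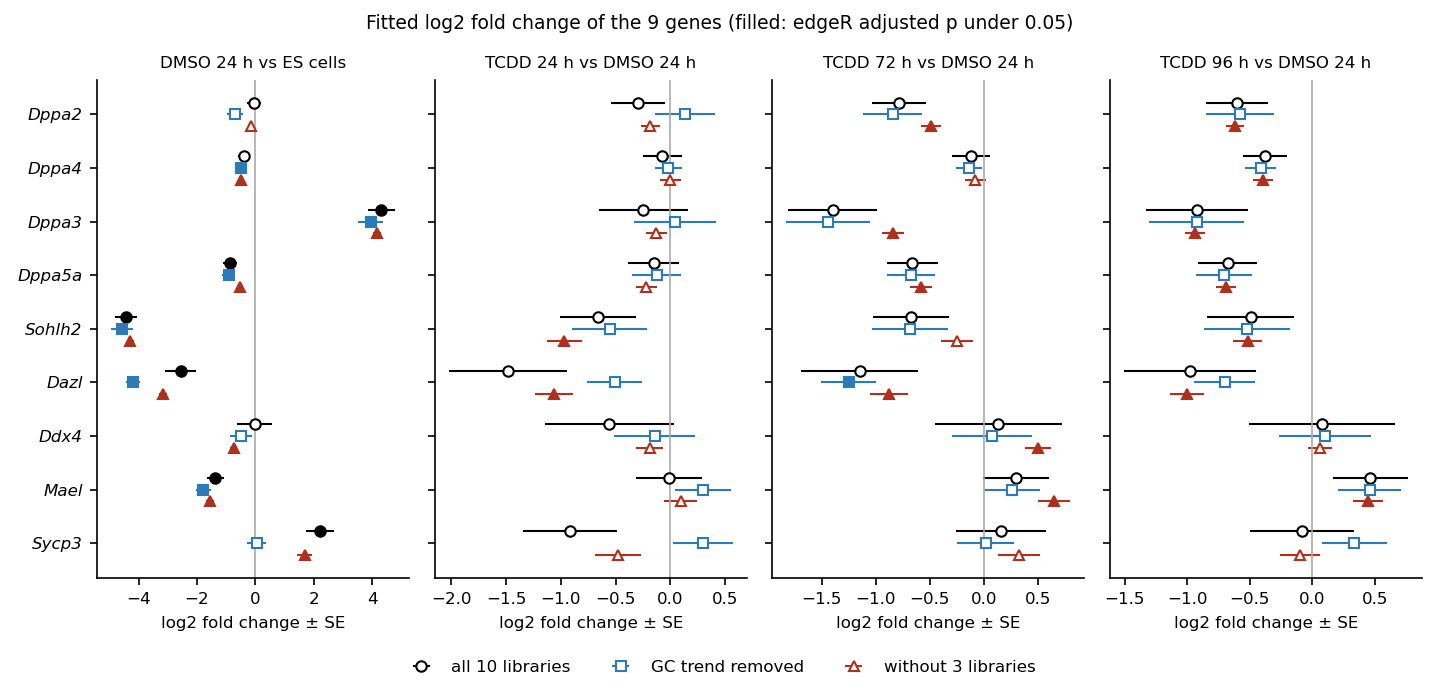
Fitted log2 fold change ± SE of the 9 genes in 4 comparisons, with all 10 libraries, with the GC trend removed and without the 3 libraries that stood apart (2 residual degrees of freedom). Filled symbols passed at an edgeR adjusted p under 0.05. Dppa3 (4.32, 3.94 and 4.16) and Sohlh2 (−4.44, −4.57 and −4.29) passed in all 3 fits of DMSO versus ES cells. With all 10 libraries and the GC trend left in, none of the 9 genes passed under TCDD. With the GC trend removed Dazl passed at TCDD 72 h.

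Between 96 and 24 h of TCDD none of the 9 passed, where 0% of all genes passed (1761 of all genes and 0 of the 9 had an unadjusted p under 0.05, and DESeq2 called 129 genes and none of the 9). The 4 Dppa genes were lower at 96 h, each without overlap between libraries, where 29.4% of all genes were. Their log2 fold changes were −0.67 for Dppa3, −0.52 for Dppa5a, −0.31 for Dppa2 and −0.31 for Dppa4. All 5 germline genes had estimates above 0, from 0.17 for Sohlh2 to 0.83 for Sycp3, and 3 of them did not overlap, where 31.2% of all genes were higher in this way. With the GC trend removed Dazl was below 0 (−0.19) and Sycp3 and Sohlh2 were near 0 (0.04 and 0.03). Without TCDD 24 h replicate 2 Sohlh2 was at −0.10, and without the 3 libraries Sycp3 was at 0.38 and Dazl at 0.06. The 4 Dppa genes passed without the 3 libraries (edgeR adjusted p from 0.000956 for Dppa3 to 0.0263 for Dppa4), where 7.24% of all genes were lower, and no germline gene did.

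The order of group means differed between genes. For Dppa5a it was ES cells (2494 CPM), DMSO (1370), TCDD 24 h (1233), TCDD 72 h (867) and TCDD 96 h (857), and only the last pair overlapped. Dppa4 kept the same order of groups, from 150 CPM in ES cells to 87.1 CPM at TCDD 96 h, with overlap between DMSO and TCDD 24 h and between TCDD 24 and 72 h. Dppa2 ran from 166 CPM in ES cells, which overlapped DMSO (161), to 131 at TCDD 24 h, 106 at 96 h and 93.2 at 72 h, the last pair overlapping. Dppa3 was highest with DMSO (105 CPM), followed by TCDD 24 h (88.3), TCDD 96 h (55.4) and TCDD 72 h (39.7), which overlapped, and ES cells (5.25). Sohlh2 and Dazl were highest in ES cells (155 and 39.4 CPM), followed by DMSO (7.13 and 6.73), and the 3 TCDD groups lay below these, each overlapping the next. Mael was highest in ES cells (17.1 CPM) and its other 4 groups ran from 9.07 to 6.53 CPM, each overlapping the next. Ddx4 ran from 18.4 to 11.4 CPM, and only TCDD 24 h, the lowest, did not overlap its neighbour. Sycp3 was lowest in ES cells (0.910 CPM), next at TCDD 24 h (2.27), and at 4.06 to 4.79 CPM in the other groups, which overlapped.

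Related germline genes were read from 4 lists that, like the 9 genes, were chosen with earlier results of these data known. Between DMSO and ES cells 22 of the 58 tested genes on them fell (37.9%) and 9 rose (15.5%), beside 15.5% each way over all genes. Without DMSO replicate 1, 14 fell and 6 rose, and without DMSO replicate 2, 13 fell and 7 rose. In the list on the piRNA pathway and germ granules 9 of 19 fell and 4 rose. Gtsf1, a partner of Piwi proteins, fell from 9.17 ± 0.188 to 0.686 ± 0.0240 CPM (SD, n = 2, log2 fold change −3.73, edgeR adjusted p = 9.67e-05) and Piwil4, a nuclear Piwi protein, from 2.94 ± 1.04 to 0.157 ± 0.0487 (SD, n = 2, −4.24, adjusted p = 0.000672). Tdrd12, a Tudor protein of piRNA biogenesis, rose from 9.90 ± 0.287 to 65.8 ± 3.20 CPM (SD, n = 2, 2.73, adjusted p = 7.51e-05). The list thus held genes that moved in the direction of Mael and genes that moved in that of Dppa3. In the list on meiotic chromosomes 6 of 19 fell and 2 rose, or 8 and 0 with the GC trend removed. Among those that fell were the synaptonemal complex genes Syce1 (−1.55) and Syce3 (−2.33) and the meiotic cohesin gene Stag3 (−2.13).

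In the list on oocyte and spermatogonial factors 4 of 11 fell and 1 rose. Khdc3 and Ooep, which encode parts of the maternal complex under the egg cortex, fell by 2.88 and 1.52 on the log2 scale, and Zp3, a zona pellucida protein, rose by 1.64. In the list on germ cell specification 3 of 9 fell and 2 rose. Prdm14, a factor of germ cell specification and naive pluripotency, stood at 36.6 ± 1.495 CPM in ES cells and 11.2 ± 0.144 with DMSO (SD, n = 2, log2 fold change −1.70, edgeR adjusted p = 0.000297). The receptor gene Kit fell by 1.43, and Lin28a, which encodes an RNA-binding protein that blocks let-7 maturation, rose by 1.14. In edgeR with all 10 libraries, the default filter and neither GC offset nor replicate block, Prdm14 alone of these 4 lists passed under TCDD. It stood at 3.03 ± 0.161 CPM at 72 h and 2.59 ± 0.153 at 96 h (SD, n = 2). The log2 fold changes against DMSO were −1.89 and −2.11 (edgeR adjusted p = 0.0176 and 0.0124). The call of Prdm14 ended in 8 of 18 alternatives at 72 h and 5 of 18 at 96 h, among them those without either DMSO library. Other fits called more of the 58 genes. With the GC trend removed 7 passed at 72 h and 7 at 96 h, all lower, where 558 and 713 genes passed in all. DESeq2 called 6 at 72 h and 6 at 96 h, all lower, and 1 at 24 h, where it called 310, 249 and 41 genes in all. Without the 3 libraries that stood apart 9 passed at 24 h (2 higher, 7 lower), 14 at 72 h (1 higher, 13 lower), 30 at 96 h (4 higher, 26 lower) and 13 between 96 and 24 h (1 higher, 12 lower), in fits that also called 766, 1967, 4397 and 1828 genes in all. Of the 30 genes at 96 h, 7 were in the list on germ cell specification, 8 in that on the piRNA pathway, 9 in that on meiotic chromosomes and 6 in that on oocyte and spermatogonial factors.

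**Figure D4:**
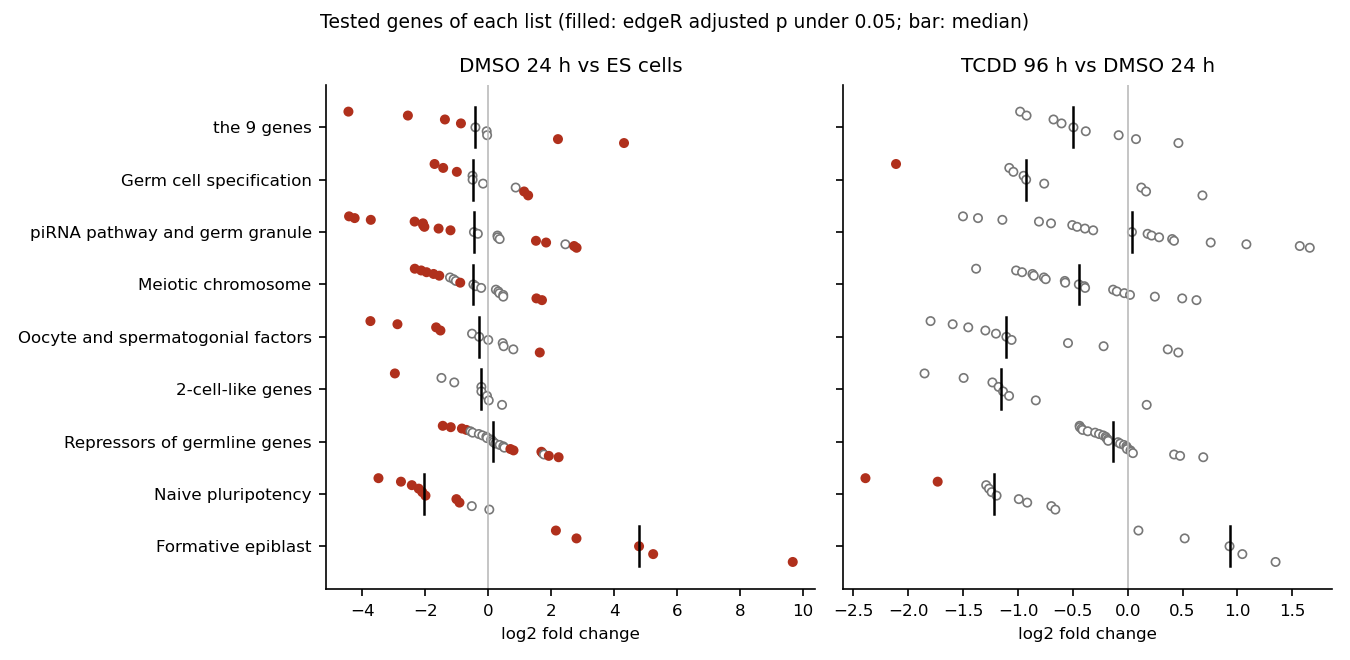
Log2 fold change of each tested gene of the 9 genes and of 8 related lists, for DMSO versus ES cells and for TCDD 96 h versus DMSO, with 1 point per gene. Filled points passed at an edgeR adjusted p under 0.05 and bars are medians. The 9 genes had a median of −0.404 and −0.495, naive pluripotency genes of −2.041 and −1.218, and formative genes of 4.795 and 0.928.

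Of 24 repressors of germline genes, 6 rose and 4 fell between ES cells and DMSO (median log2 fold change 0.15). Over all tested genes 15.5% rose and 15.5% fell. The de novo DNA methyltransferase genes Dnmt3a and Dnmt3b rose from 157 ± 6.22 to 522 ± 10.5 CPM and from 208 ± 25.3 to 671 ± 17.5 CPM (SD, n = 2, edgeR adjusted p = 0.00107 and 0.000510). Dnmt1, the maintenance methyltransferase, fell by 0.83 (adjusted p = 0.00947) and Wdr5, a WD40 protein of chromatin complexes, by 1.44 (0.00246). Pcgf6, the Polycomb subunit that defines the E2F6 and MGA complex, rose by 0.71 (edgeR adjusted p = 0.0335), and E2f6, Max and L3mbtl2 did not pass. Mga had 58.2 ± 52.1 CPM in ES cells and 199 ± 15.3 with DMSO (SD, n = 2, adjusted p = 0.0559). Across the alternatives 4 to 16 of the 24 passed between ES cells and DMSO, with 4 without either DMSO library and 16 without the 3 libraries that stood apart. None of the 24 passed in a TCDD comparison in edgeR with all 10 libraries and the GC trend left in. DESeq2 called 1 at 24 h, and 1 passed at 72 h with the GC trend removed and 2 without TCDD 72 h replicate 2. Without the 3 libraries 4 passed at 24 h, 5 at 72 h, 11 at 96 h (3 higher, 8 lower) and 9 between 96 and 24 h (1 higher, 8 lower). Each fit that called more of the 24 than edgeR with all 10 libraries and the GC trend left in also called more genes in all. Whether any change in these repressors bears on the 9 genes was not tested.

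Lists of pluripotency states were read beside Dppa3 and Prdm14, which are transcribed in naive cells. Of 10 naive pluripotency genes 8 fell between ES cells and DMSO and 0 rose, and of 5 formative epiblast genes 5 rose. Of 8 tested genes listed as 2-cell-like 1 fell (Pramel6, by 2.96). Over all tested genes 15.5% rose and 15.5% fell in this comparison. Summed levels of the 10 naive genes were 3256 to 3650 CPM per library in ES cells, 1182 to 1200 with DMSO and 523 to 547 at TCDD 96 h. The 10 measured 2-cell-like genes summed to 16.6 to 24.5 CPM in ES cells, 8.32 to 9.23 with DMSO and 3.06 to 4.14 at TCDD 96 h, where all 10 had a mean under 1 CPM. In ES cells much of this sum was Pramel6, at a mean of 10.6 CPM against 1.36 with DMSO, and Pramel7, at 3.17 against 1.49. Zscan4b, the next highest in ES cells, stood at 2.05 CPM there and 1.99 with DMSO. Markers of other cell types were read beside the same shares over all genes. Summed levels were 10.2 to 12.9 CPM in ES cells and 69.9 to 85.5 with DMSO for 7 fibroblast genes (5 of 6 tested rose). For 8 genes listed for trophoblast they were 21.8 to 22.4 and 38.6 to 38.9 (3 of 5 rose). Hand1 alone went from a mean of 3.18 to 17.9 CPM in that list. For 10 gonadal somatic genes they were 16.3 to 17.0 and 10.6 to 12.4 (2 of 7 rose and 1 fell), of which 2 were at 0 in ES cells and 1 with DMSO. Whether these sums reflect such cell types, and whether such cells have a part in the levels of the 9 genes, was not tested.

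For the 8 genes with a mean of at least 5 CPM, the most similar of 10093 genes were ranked by Pearson correlation of log2 CPM over the 10 libraries, which share the contrast between ES cells and the rest. The nearest to Dppa3 were Eprn (0.991), Rhpn2 (0.988) and the piRNA gene Tdrd12 (0.983). Nearest to Dppa5a were Akap1 (0.992), its chromosomal neighbour Ooep (0.988) and Itgb7 (0.987). Those nearest to Sohlh2 were Stat5a (0.993), Smim14 (0.990) and Fmr1nb (0.989). The genes nearest to Dppa2, Dppa4, Dazl, Ddx4 and Mael were Scp2 (0.981), Gramd1b (0.975), Zbtb43 (0.990), Slc38a4 (0.987) and Tmem19 (0.992). Among the 9 genes themselves, Sohlh2 was most like Dazl (0.905) and Dppa5a (0.888), and most unlike Dppa3 (−0.832). Dppa4 and Dppa2, though neighbours, had a correlation of 0.695, and Ddx4 was near 0 with Dppa4 (0.006).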

How the data were processed

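Per the labels' protocols, polyadenylated RNA was made into stranded (dUTP) libraries with 8 PCR cycles and single reads of 51 bp were taken. The authors deposited whole-number counts per gene for the 10 libraries, without normalization. TopHat, edgeR, bcl2fastq, CASAVA 1.8 and the build mm10 are named in the submitters' processing notes. The sources used here do not say how reads were assigned to genes or with which strand setting. One row without a gene name (0.000201 to 0.00285% of a library's counts) was left out. Columns were matched to samples by name and groups came from the labels.

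The test was edgeR's quasi-likelihood test (edgeR 4.0.16 under R 4.3.3): a fit over all 10 libraries with a mean for each group, TMM factors, default expression filter, robust dispersion, 5 residual degrees of freedom, two-sided tests, Benjamini-Hochberg adjustment over all genes, threshold 0.05. CPM used TMM-scaled library sizes and log2 CPM a prior count of 2. Lengths and GC content are of the longest GENCODE M21 protein-coding transcript. The script was tested on simulated data. Alternatives were RLE factors, no filter, DESeq2 1.42.0, the replicate number as a block, a loess GC offset (span 0.3, GC values for 95.81% of tested genes), block with offset, the cardiomyocyte-labelled libraries alone, the joint removal of replicate 2 of ES cells and replicate 1 of both TCDD 24 h and TCDD 72 h, and the removal of each library in turn. Where a removal left 1 library in a group, it was assumed to vary like the others.

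The 9 genes, the lists and the alternatives were chosen with earlier results of these data known. The text names the 9 genes, up to 3 genes per list and comparison with the smallest p among those that passed, and for genes with a mean of at least 5 CPM the 3 most correlated. E2f6, Max, L3mbtl2, Mga, Pcgf6, Dnmt1, Pramel7, Zscan4b and the overlapping gene Chpt1 were named after their values were seen.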

Additional observations from a re-analysis of the deposited data

How the results depend on the processing

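For the 9 genes, 738 alternative values kept direction and side of the threshold, 27 passed anew, 11 no longer passed and 25 changed sign; the cause was not tested. The genes that passed numbered 3 to 7 in DMSO versus ES cells with each library left out (3 without either DMSO library), and in the TCDD comparisons 0 to 2 (72 h) and 0 at 24 h, 96 h and 96 versus 24 h. At 72 h 1 passed with DESeq2 and 1 (Dazl) with the GC offset. Without the 3 libraries 2 (24 h), 6 (72 h), 7 (96 h) and 4 (96 versus 24 h) passed. The totals over all genes moved more. Leaving out each library gave 1902 to 7736 genes in DMSO versus ES cells, 0 to 1 at 24 h, 0 to 969 at 72 h, 0 to 376 at 96 h and 0 to 97 for 96 versus 24 h. Without the 3 libraries the totals were 8027, 766, 1967, 4397 and 1828. At 24 h, 72 h, 96 h and 96 versus 24 h they were 1, 59, 98 and 2 without the filter, 41, 310, 249 and 129 with DESeq2, and 5, 558, 713 and 110 with the GC offset. They were 1, 288, 380 and 83 with the cardiomyocyte-labelled libraries only. Labels give the replicate numbers no meaning (deviations of same-numbered libraries correlated at −0.755 to 0.448). With the replicate block 3728 genes passed in DMSO versus ES cells and 0 in each TCDD comparison, the 9 genes' calls staying at 6 and 0; with block and GC offset the TCDD totals were 195 at 72 h, 353 at 96 h and 3 for 96 versus 24 h.

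Signs changed as follows. With each library left out, Dppa2 ran from −0.155 to 0.080 and Ddx4 from −0.732 to 1.406 (both highest without ES replicate 1, and Ddx4 0.018 without DMSO replicate 1) in DMSO versus ES cells. At 24 h, Mael was 0.003 without the filter, 0.30 with the GC offset, 0.095 without the 3 libraries, and −0.118 to 0.096 with each library left out (above 0 without DMSO replicate 1 or TCDD 24 h replicate 1). Dppa4 was 0.000 without the 3 libraries. With the GC offset and with block and offset, Dppa2 was 0.133 and 0.142, Dppa3 0.038 and 0.037, Mael 0.298 and 0.296, and Sycp3 0.296 and 0.292. At 72 h the leave-out ranges were −0.431 to 0.519 for Ddx4, −0.262 to 0.673 for Mael and −0.084 to 0.342 for Sycp3, below 0 without TCDD 72 h replicate 2. At 96 h Sycp3 was 0.335 with the offset, 0.337 with block and offset and −0.180 to 0.006 with each library left out (above 0 without TCDD 96 h replicate 1). For 96 versus 24 h Dazl was −0.193 and −0.188 with the offset and with block and offset, and Sohlh2 ran from −0.096 (without TCDD 24 h replicate 2) to 0.465.

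With 2 libraries per group and unequal replicates, a member that did not pass under TCDD is not shown to be unchanged. Sycp3 rested on 40 counts in ES cells.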
